A study of Mus musculus with 2 samples.

Results

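The cells described here are C1q-high macrophages of the newborn mouse lung, taken from a table of single cells by their own transcripts. A cell was a member when C1qa, C1qb and C1qc were each above 0 and summed to at least 6, when fewer than 3 of the 6 alveolar macrophage genes Plet1, Atp6v0d2, Siglecf, Lpl, Abcg1 and Marco were above 0, when Pecam1, Col1a2, Cd3e and Cd79a were all at 0, and when mitochondrial genes made up at most 10% of the cell's total. This left 105 cells, or 0.985% of the 10660 cells within the mitochondrial limit (exact Clopper-Pearson 95% interval 0.806% to 1.19%) and a smaller part of the 11306 cells deposited. The interval, like all intervals below, covers counting error only, and a share in a sorted suspension is not a share of the tissue.

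The study measured peripheral lung of mice at postnatal day 3 in 2 libraries. One was a single-cell library (Chromium 3′ chemistry, version 3) of sorted cells from wild-type mice, in which the members were found. The other was a bulk library of PDGFRα+ cells sorted from mice with the Pdgfra-H2BGFP reporter allele, and both are labelled as control lungs. There was 1 library of each kind and no replicate, so no difference below has a test, p-value or error between animals. The labels used here do not say whether animals were pooled or which marker the single-cell sort used.

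C1q is the recognition molecule of the classical complement pathway. It is built from the 3 chains that C1qa, C1qb and C1qc encode, binds antibody complexes and dying cells, and is made mainly by macrophages rather than by hepatocytes. Lung macrophages fall into alveolar macrophages, which live on the airspace surface and clear surfactant, and macrophages of the interstitium around vessels, airways and nerves, which in adult mice are commonly divided by Lyve1 and by MHC class II with Cx3cr1.

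The 3 C1q genes lie side by side on the minus strand of mouse chromosome 4 and span 18.7 kb (mm10, 136880129 to 136898803, coordinates of the deposited bulk table). Because all 3 chains had to be present in every member and varied together among the members, the RefSeq promoters of C1qb and C1qc are shown (build GRCm38.p6, the 250 bases before the RefSeq start, minus strand, written 5′ to 3′ along the gene). The 2 annotations differ on the start of C1qc. In the coordinates of the bulk table C1qc begins at 136893065, inside the window shown, so by those coordinates part of that window lies within the gene. Capitals mark GAGGAA or its reverse complement TTCCTC, a form of the motif of PU.1, the factor that macrophages depend on, and TGCTGA or its reverse complement TCAGCA, a form of the core of the MAF recognition site.
C1qb, chr4:136886201-136886450: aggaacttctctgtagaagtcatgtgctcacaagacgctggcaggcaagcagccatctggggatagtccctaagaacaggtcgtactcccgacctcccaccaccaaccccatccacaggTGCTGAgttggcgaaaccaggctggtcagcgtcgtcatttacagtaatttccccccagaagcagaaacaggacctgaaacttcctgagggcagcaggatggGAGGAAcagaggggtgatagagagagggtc
C1qc, chr4:136892915-136893164: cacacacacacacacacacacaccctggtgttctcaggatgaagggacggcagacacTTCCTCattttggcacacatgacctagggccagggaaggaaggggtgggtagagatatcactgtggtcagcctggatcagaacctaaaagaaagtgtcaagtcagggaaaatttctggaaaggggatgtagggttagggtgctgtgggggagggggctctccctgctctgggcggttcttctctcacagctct
The C1qb window held 1 PU.1 match on the forward strand and 1 MAF match. The C1qc window held 1 PU.1 match on the reverse strand and 0 MAF matches. Both strands were searched, and the 2 motifs share no letters in these windows. Such short motifs are common: 23.3% of 32851 promoter windows of the same length held the PU.1 letters and 16.1% held the MAF letters, so a match describes the sequence and is not a binding site.

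The members were set beside 3 other populations cut from the same library with the same exclusions. Alveolar macrophages (1257 cells) had at least 3 of the 6 alveolar macrophage genes, classical monocytes (108 cells) had Ly6c2, Ccr2 and Csf1r without Treml4, and non-classical monocytes (305 cells) had Csf1r with at least 2 of 6 genes such as Treml4 and Ace. A level is the sum of a gene's deposited values over a population, scaled to a total of 1000000 and called CPM. A ratio adds 1 CPM to both sides and is given as log2, and a gene is called different from 2-fold upwards, at a log2 ratio of at least 1 or at most -1. Median numbers of detected genes per cell were 2429 in the members, 2523 in alveolar macrophages, 2258 in classical monocytes and 2028 in non-classical monocytes. The 1853 mesenchymal cells (Col1a2 and Col3a1 above 0, Ptprc at 0) served as background for free RNA in the droplets and had a median of 2608 detected genes.

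The C1q values chose the cells and are given only as a description. C1qa ranged per member around a median of 33 with a highest value of 75, C1qb had a median of 20 and a highest value of 52, and C1qc a median of 16 and a highest value of 42. In CPM, C1qa was 5288 in the members, 63.1 in alveolar macrophages, 4.65 in classical monocytes and 2.89 in non-classical monocytes. The C1q sum per cell had a median of 71 in members and of 0 in each of the other populations. Its lower limit cut through few cells: 4 members had a sum between 6 and 12, and 1 cell just outside had a sum of 3. The limit on alveolar macrophage genes mattered more. Of the members 45 had none of the 6 genes, 40 had 1 and 20 had 2, whereas 4 cells with 3 such genes and 17 with more were left outside, with median C1q sums of 67.5 and 26. No member was predicted to be a doublet, against 461 of the 10660 cells in the library.

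**Figure D1:**
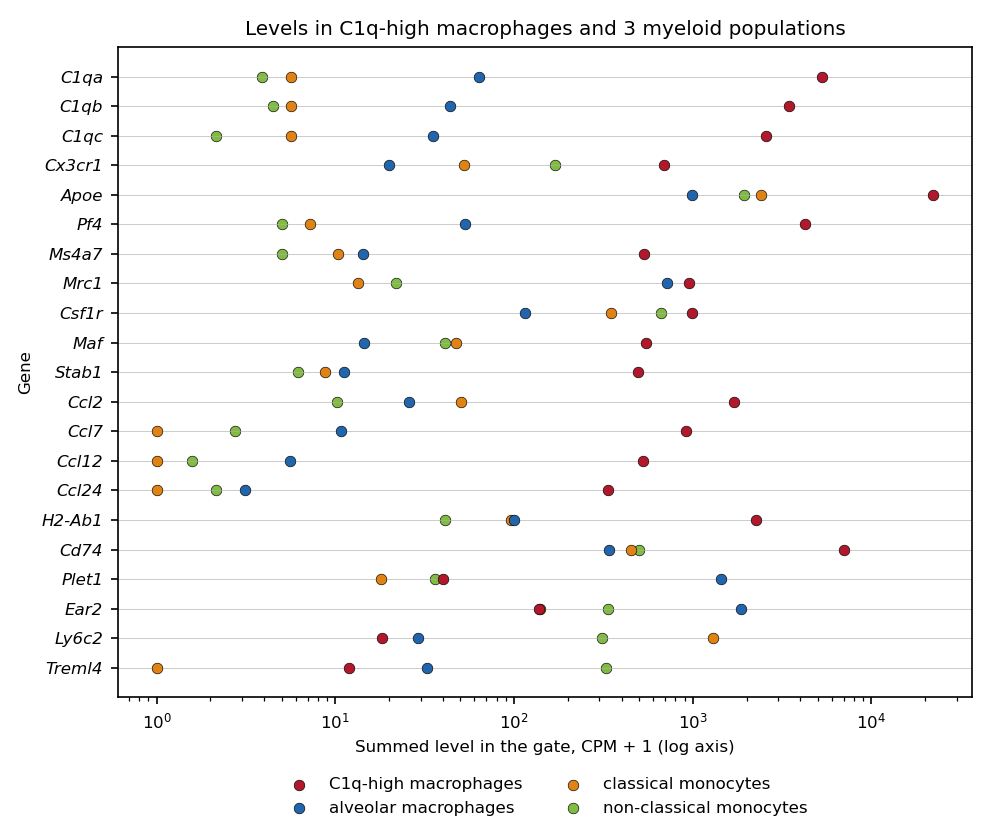
Summed levels (CPM + 1, log axis) of 21 genes in C1q-high macrophages, alveolar macrophages, classical monocytes and non-classical monocytes, 1 point per population. C1qa, C1qb, C1qc, Csf1r, Plet1, Ly6c2 and Treml4 took part in choosing the cells. Pf4 stood at 4228 CPM in the members and at 52.2 CPM or less in the other 3 populations, while Ly6c2 stood highest in classical and Treml4 in non-classical monocytes.

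The 14 markers listed for interstitial macrophages were all detected in the members, but they include C1qa, C1qb and C1qc, which the rule required, so this count and the sums below were partly set by the choice of cells. Cx3cr1, the fractalkine receptor, was above 0 in 74 of the 105 members, 70.5% (60.8% to 79.0%), against 0.594% of mesenchymal background cells, and its level was 685 CPM in the members, 18.9 CPM in alveolar macrophages, 51.1 CPM in classical monocytes and 169 CPM in non-classical monocytes. Csf1r, the receptor for the growth factor that macrophages need, was above 0 in 102 members, with a lowest value of 0, a median of 5 and a highest of 18. Csf1r was at 985 CPM in the members, 114 CPM in alveolar macrophages, 346 CPM in classical monocytes and 660.2 CPM in non-classical monocytes. Apoe, a lipid transport protein, was above 0 in 103 members, and its level was 22144 CPM in the members, 988 CPM in alveolar macrophages and 2422 CPM in classical monocytes. The 14 markers summed to between 4404 and 133540 CPM per member, with a median of 41955 CPM, and to 533 CPM over the mesenchymal background cells. Of the 7 dendritic cell markers, 5 were at 0 in all members (Flt3, Xcr1, Clec9a, Cd209a and Itgae). Ly6g of neutrophils and Pdgfra of mesenchymal cells were also at 0 in all members. A count of 0 of 105 cells allows a share of up to 2.86% of cells with a value for the gene, and this limit, like the others below, is on detection and not on cells that express the gene. Markers of other lineages were not all at 0: the 8 neutrophil markers summed to 1597 CPM and were read in 85 of the 105 members, the 6 classical monocyte markers to 701 CPM in 84 members, and the 14 alveolar macrophage markers to 546 CPM in 73 members. Per member the neutrophil markers had a median of 197 CPM and a highest value of 119526 CPM, so their sum is not that of a typical member. Surfactant and other markers of alveolar type 2 cells summed to 377 CPM and were read in 91 of the 105 members, and their part in the results was not tested. The label "interstitial" rests on position, which dissociated cells do not show, and 31 members had Cx3cr1 at 0. The population is therefore called by its C1q rule.

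The members were not uniform, and the clearest division ran between Timd4 and Cx3cr1. Timd4, a receptor for phosphatidylserine on dying cells, was above 0 in 28 members, 26.7% (18.5% to 36.2%), against 0.108% of mesenchymal background cells. Of these 28 cells, 24 had Cx3cr1 at 0, and 24 of the 31 members without Cx3cr1 had Timd4. H2-Aa, a chain of MHC class II, was above 0 in 33 members, 31.4% (22.7% to 41.2%), against 4.16% of background cells. Of these 33 cells, 29 had Cx3cr1 and 2 had Timd4. Taking the 3 genes together, 41 members had Cx3cr1 alone, 29 had Cx3cr1 with H2-Aa, 22 had Timd4 alone, 4 had Timd4 with Cx3cr1, 2 had H2-Aa alone, 2 had Timd4 with H2-Aa and 5 had none. Across the 105 members, which share 1 library and its depth, Spearman's rho was -0.56 between Timd4 and Cx3cr1, -0.33 between H2-Aa and Timd4, and -0.01 between H2-Aa and Cx3cr1. The splits by Timd4 and by H2-Aa were made after these values were seen, so the differences across them are descriptions.

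**Figure D2:**
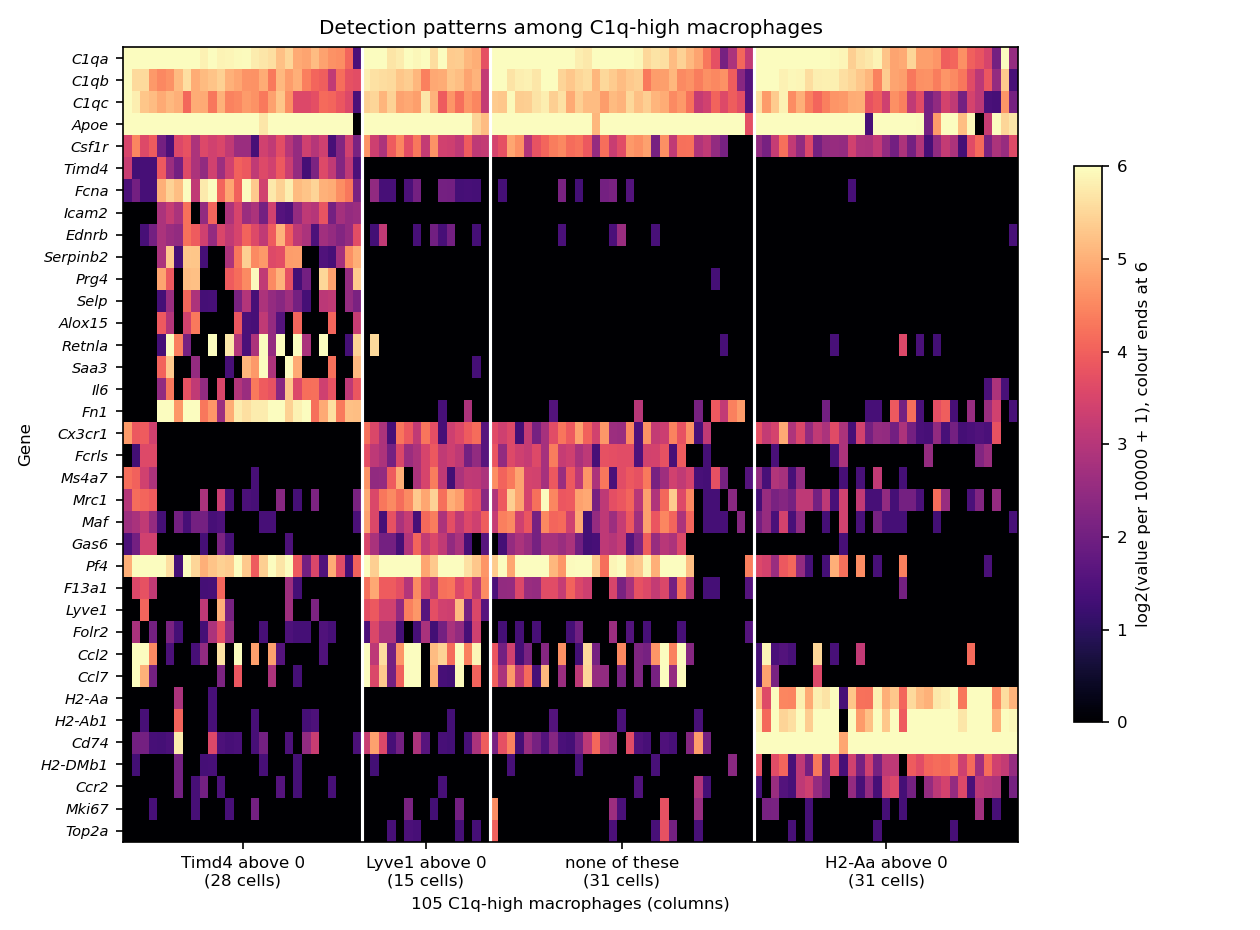
Values of 36 genes (rows) in each of the 105 C1q-high macrophages (columns), as log2 of the value per 10000 plus 1, with the colour scale ending at 6. Columns are grouped by Timd4 above 0 (28 cells), then Lyve1 above 0 (15 cells), then neither of these nor H2-Aa (31 cells), then H2-Aa above 0 (31 cells), and within a group by Cx3cr1 and the C1q sum. C1q genes and Apoe run through all groups, while the genes from Fcna to Fn1 lie mostly under Timd4 and the MHC class II genes under H2-Aa.

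The cells with Timd4 carried genes that the other members had at lower levels or at 0. Fcna, encoding the lectin ficolin A, which starts the lectin pathway of complement, was above 0 in all 28 cells with Timd4 and in 17 of 77 without, at 3135 CPM and 53.3 CPM. Prg4, encoding the lubricating glycoprotein lubricin, was at 1491 CPM in cells with Timd4 (18 of 28 cells) and at 2.13 CPM in cells without (1 of 77). Serpinb2, an inhibitor of plasminogen activators, was at 1345 CPM in 20 of the 28 cells with Timd4 and was listed at 0 in all 77 without, which allows a share of up to 3.9% of such cells with a value. Selp, Icam2 and Alox15, which encode P-selectin, an adhesion molecule and a lipoxygenase, had the same pattern. They were above 0 in 19, 22 and 13 cells with Timd4 and at 0 in every cell without.

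Secreted products differed along the same line. Retnla, a secreted protein induced by interleukin-4 in macrophages, was at 4086 CPM with Timd4 and 87.4 CPM without. Saa3, an acute phase protein, was at 1556 CPM with Timd4 and 2.13 CPM without, and C4b, a complement component, at 605 CPM and 4.26 CPM. Il6 was at 881 CPM with Timd4, in 20 of 28 cells, and at 12.8 CPM without, in 3 of 77 cells. Fn1, encoding fibronectin, was at 4122 CPM with Timd4 and 228 CPM without. The endothelin receptor gene Ednrb was at 828 CPM with Timd4 and 42.6 CPM without.

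Other genes were lower in the cells with Timd4. The MHC class II chaperone Cd74 was at 382 CPM with Timd4 and 9414 CPM without, and H2-Aa at 29.4 CPM with and 1742 CPM without. The cells without Timd4 include 31 of the 33 members with H2-Aa. Over the 72 members without H2-Aa, 26 of them with Timd4, Cd74 was at 376 CPM. A low Cd74 level was thus shared by members without H2-Aa and is not particular to the cells with Timd4. Ms4a7 was at 182 CPM with and 661 CPM without, the mannose receptor gene Mrc1 at 311 CPM with and 1192 CPM without, and the transcription factor gene Maf at 164 CPM with and 689 CPM without. Spp1, encoding osteopontin, was listed at 0 in all 28 cells with Timd4 and stood at 215 CPM without. The C1q genes and Apoe hardly differed, with C1qa at 5384 CPM with Timd4 and 5254 CPM without. Median numbers of detected genes were 2277 with Timd4 and 2478 without.

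**Figure D3:**
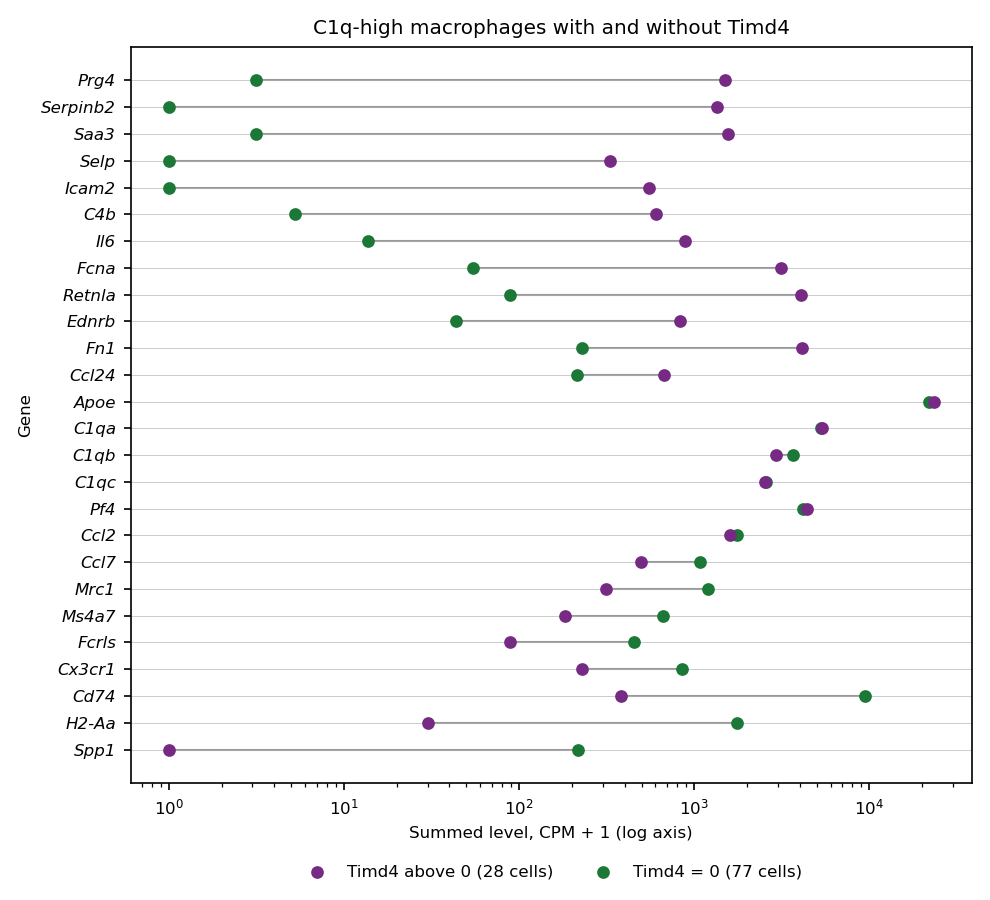
Summed levels (CPM + 1, log axis) of 26 genes in C1q-high macrophages with Timd4 (28 cells) and without Timd4 (77 cells), joined by a line. Points at the left edge are genes listed at 0. The genes at the top, from Prg4 to Fn1, stood far higher with Timd4, C1qa, C1qb, C1qc, Apoe and Pf4 lay close together, and Cd74, H2-Aa and Spp1 stood lower with Timd4.

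Timd4, Prg4, Selp, Icam2, Alox15, Serpinb2 and Fn1 are known together from resident macrophages of the peritoneal and pleural cavities of mice, whose factor GATA6 was hardly read here: Gata6 was above 0 in 2 of the 28 cells with Timd4 and in 0 of the 77 without, against 20.5% of mesenchymal background cells. Where the cells lay in the tissue was not tested, and no other name is given to them. Selp, Icam2, Alox15, Fn1 and Gata6 were chosen after their values were seen. Of the 28 cells with Timd4, 22 had at least 2 of Prg4, Selp, Serpinb2, Icam2 and Alox15, against 0 of the 77 without. None of the 74 members with Cx3cr1 had any of Prg4, Selp, Serpinb2, Icam2 and Alox15, the 4 cells with both Timd4 and Cx3cr1 included, and 0 of 74 allows a share of up to 4.05%. Outside the members, 57 cells of the library had Timd4, of which 46 had a C1q sum of 0 and 6 had at least 2 of those 5 genes.

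The cells with H2-Aa formed the other pole. Cd74 was at 21023 CPM with H2-Aa and 376 CPM without, H2-Ab1 at 7032 CPM with and 18.4 CPM without, and H2-DMb1, which helps to load peptides, at 896 CPM with and 23.0 CPM without. Ciita, the master regulator of MHC class II genes, was above 0 in 8 of 33 cells with H2-Aa and in 0 of 72 without, which allows a share of up to 4.17%. Ccr2, the receptor that brings monocytes out of the marrow, was at 424 CPM with H2-Aa, in 27 of 33 cells, and at 32.3 CPM without, in 10 of 72 cells. Gas6, a bridge between dying cells and TAM receptors, was at 4.87 CPM with H2-Aa and 341 CPM without, and F13a1, a coagulation factor subunit, at 14.6 CPM with and 661 CPM without. Pf4, the platelet factor 4 chemokine, was at 594 CPM with H2-Aa and 5947 CPM without. C1qa again differed little, at 5031 CPM with H2-Aa and 5410 CPM without.

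Lyve1, the hyaluronan receptor of lymphatic vessels and some tissue macrophages, was above 0 in 21 members, 20% (12.8% to 28.9%), against 3.72% of background cells. None of the 21 had H2-Aa, so none of the 33 cells with H2-Aa had Lyve1, which allows a share of up to 9.09%. Folr2, a folate receptor, was above 0 in 17 of the 21 cells with Lyve1 and in 20 of the 84 without, and rho between the 2 genes was 0.51 over the 105 members. Cells with Lyve1 had more of the monocyte chemoattractants: Ccl2 was at 4783 CPM with Lyve1 and 938 CPM without, Ccl7 at 2411 CPM with and 546 CPM without, and Ccl12 at 1330 CPM with and 323 CPM without. F13a1 was at 1237 CPM with Lyve1 and 256 CPM without. Of the 21 cells 6 also had Timd4 and 16 had Cx3cr1. Median numbers of detected genes were 2663 with Lyve1 and 2373 without.

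Cx3cr1 marked the members that also carried genes known from microglia, the macrophages of the brain. Fcrls was above 0 in 48 of 74 cells with Cx3cr1 and in 0 of 31 without, Gpr34 in 32 with and 0 without, and Tmem119 in 15 with and 0 without, where 0 of 31 allows a share of up to 9.68%. Tmem119 was also above 0 in 30.7% of the mesenchymal background cells, so its reads in the members cannot be told apart from free RNA by this share. Ms4a7 was at 724 CPM with Cx3cr1 and 64.8 CPM without, and Mrc1 at 1299 CPM with and 119 CPM without. Gpr34 and Tmem119 were chosen after their values were seen.

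The values of the C1q chains varied together over the members: rho was 0.79 between C1qa and C1qb, 0.76 between C1qa and C1qc and 0.69 between C1qb and C1qc. Because the rule used these genes, this is a description. The C1q sum had a rho of 0.24 with the number of detected genes. Maf had a rho of 0.42 with C1qa. Over all 10660 cells the genes whose values were most like the C1q sum were Fcrls and C3ar1 (rho 0.33 each), Ms4a7 (0.29), Ccl24 (0.28) and Folr2 (0.27), in sparse values where most cells are at 0. Of all cells with Folr2 in the library 61.7% were members (37 of 60), and of all cells with Ccl24 53.3% (49 of 92).

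Transcripts of dividing cells were read in some members. Mki67 or Top2a was above 0 in 27 members, 25.7% (17.7% to 35.2%), against 38.5% of alveolar macrophages (35.8% to 41.3%), 21.3% of classical monocytes (14% to 30.2%) and 9.51% of non-classical monocytes (6.46% to 13.4%). Mesenchymal cells, which divide at this age, had a share of 28.5%, so the part of free RNA in these shares was not tested. Of the 27 members 24 had Cx3cr1, 10 had H2-Aa and 4 had Timd4. Mki67 was above 0 in 4 of the 28 cells with Timd4 and in 15 of the 77 without. Top2a was listed at 0 in the cells with Timd4, which allows a share of up to 10.7%, and stood at 64.0 CPM in those without.

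Against all other cells of the library, 1176 of 15472 genes with at least 20 summed values were 2-fold higher in the members, which is 7.6%, and 3953 were 2-fold lower, which is 25.5%. All 3 C1q chains chose the cells, and of the 21 listed chemokine genes 14 were 2-fold higher and 5 lower. The other comparisons are with single populations.

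Against alveolar macrophages, 974 of 10857 genes with at least 20 summed values were 2-fold higher in the members, which is 8.97%, and 1884 were 2-fold lower, which is 17.4%. The alveolar macrophages include the 21 cells that passed the C1q condition and had at least 3 alveolar macrophage genes. Without those cells 21 of the gene ratios recomputed moved by over 1.5 times, 121 did not and 0 reversed: the log2 ratio was 8.47 for Pf4 (6.31 with them), 8.29 for Ccl12 (6.57 with them) and 6.79 for Ms4a7 (5.23 with them). The median log2 ratio of all these genes was -0.23. The 23 lists used to describe the members hold 415 genes of the table, not all of them with at least 20 summed values. Of these, 141 were 2-fold higher, above the all-gene share of 8.97%, and 68 lower, near the all-gene share of 17.4%. A share near these values in a single list is that of all genes. The lists were chosen as macrophage genes, and the members and lists were chosen with results of these cells known, so the counts describe them.

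Chemokines were above the background share. Of 21 listed, 18 had enough values, of which 13 were 2-fold higher in the members than in alveolar macrophages and 2 lower, with a median log2 ratio of 3.36. Ccl2, Ccl7 and Ccl12 attract monocytes through CCR2 and lie in a cluster on chromosome 11. Ccl2 was at 1711 CPM in the members and 24.8 CPM in alveolar macrophages, Ccl7 at 921 CPM and 9.77 CPM, and Ccl12 at 526 CPM and 4.55 CPM. Per member, Ccl2 had a lowest value of 0, a median of 0 and a highest of 139, and it was above 0 in 49.5% of members against 5.72% of background cells. Ccl24, an eosinophil attractant, was at 335 CPM in the members and 2.14 CPM in alveolar macrophages. Pf4 was above 0 in 82 members, with a median of 18 and a highest value of 156, and its level was 4228 CPM in the members and 52.2 CPM in alveolar macrophages. Cxcl1, a neutrophil attractant, was at 1705 CPM in the members and 165 CPM in alveolar macrophages, while Ccl6 went the other way with 490 CPM in the members and 3927 CPM in alveolar macrophages. Among the members Cxcl1 was at 4503 CPM with Timd4 and 689 CPM without. Without the cells with Timd4 the chemokine median was 2.36.

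MHC class II presentation genes were higher in 8 of 12 with enough values and lower in 0, with a median of 2.29. H2-Ab1 was at 2271 CPM in the members and 99.5 CPM in alveolar macrophages, and Cd74 at 7008 CPM and 340 CPM, carried by the cells with H2-Aa described above. Cd86, a costimulatory ligand, was above 0 in 70.5% of members against 1.62% of background cells, at 244 CPM in the members and 28.2 CPM in alveolar macrophages.

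Of 18 dead cell uptake genes 8 were higher and 3 lower, the lower ones near the all-gene share of 17.4%, with a median of 0.60. Stab1, a scavenger receptor that also binds phosphatidylserine, was at 493 CPM in the members and 10.2 CPM in alveolar macrophages, Timd4 at 192 CPM and 1.34 CPM, and Trem2, a lipid sensor, at 400.4 CPM and 89.8 CPM. 2 TAM receptors were lower: Mertk was at 54.7 CPM in the members and 205 CPM in alveolar macrophages, and Axl at 196 CPM and 395 CPM, just past the 2-fold limit at a log2 ratio of -1.01. Gas6, a ligand of both, was at 233 CPM in the members and 7.36 CPM in alveolar macrophages. It was detected in 42.9% of members (1 of 33 with H2-Aa and 44 of 72 without) and in 42.3% of mesenchymal cells. The part of free RNA in these reads was not tested. Among 19 scavenger and lectin receptors 10 were higher and 2 lower. Mrc1 was not past the limit, with 957 CPM in the members and 713 CPM in alveolar macrophages.

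Complement genes other than the C1q chains were higher in 8 of 17 and lower in 1, with a median of 0.83. C3ar1, the receptor for the anaphylatoxin C3a, was above 0 in 87 members against 0.648% of background cells, at 328 CPM in the members and 7.9 CPM in alveolar macrophages. Itgam, a chain of complement receptor 3, was at 247 CPM in the members and 28.8 CPM in alveolar macrophages. Among the members it was at 663 CPM with Timd4 and 95.9 CPM without. C4b, at 164 CPM in the members and 2.28 CPM in alveolar macrophages, came mostly from the cells with Timd4. Without those cells the list's median was -0.09, against the all-gene median above.

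Of 25 transcription factor genes 8 were higher, above the all-gene share of 8.97%, and 4 lower, near the all-gene share of 17.4%. Maf was at 549 CPM in the members and 13.4 CPM in alveolar macrophages, and Mef2c at 440 CPM and 33.1 CPM. Pparg, which alveolar macrophages need to form, was at 9.39 CPM in the members and 96.1 CPM in alveolar macrophages, and the sterol sensor Nr1h3 at 1.56 CPM and 32.5 CPM. Lipid handling genes were lower in 10 of 22 and higher in 6, with a median of -0.88. The lipid droplet gene Cidec was listed at 0 in all members and stood at 82.1 CPM in alveolar macrophages, and Fabp1, a fatty acid carrier, was at 7.82 CPM in the members and 224 CPM in alveolar macrophages. Apoe, Apoc1 and the phospholipid transfer gene Pltp were higher in the members. Of 28 lysosomal genes 8 were higher and 4 lower, the lower ones again near the all-gene share. The endopeptidase gene Lgmn was at 1140.3 CPM in the members and 161 CPM in alveolar macrophages, and the cathepsin gene Ctsk at 3.13 CPM and 142 CPM.

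Iron genes were higher in 5 of 14 and lower in 2. Slc40a1, the iron exporter ferroportin, was at 174 CPM in the members and 4.95 CPM in alveolar macrophages. Growth factor genes were higher in 6 of 15 and lower in 3: Igf1 was at 108 CPM in the members and 4.95 CPM in alveolar macrophages, although more mesenchymal cells (53.7%) than members (29.5%) had it. Bmp2, chosen after its values were seen, was at 130 CPM in the members and 1.34 CPM in alveolar macrophages, with a share of 25.7% in members and 8.8% in mesenchymal cells, and Gdf15 was at 1.56 CPM in the members and 108 CPM in alveolar macrophages. Matrix genes were split evenly, 6 higher and 6 lower of 20. F13a1 was at 454 CPM in the members and 10.8 CPM in alveolar macrophages, and Spp1 at 158 CPM and 1678 CPM.

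Among chemoattractant receptors 9 of 17 were higher and 3 lower. Gpr183, a receptor for oxysterols, was at 145 CPM in the members and 4.15 CPM in alveolar macrophages, and Fpr2, a formyl peptide receptor, at 26.6 CPM and 403 CPM. Of 11 cytokine genes 3 were higher and 2 lower. Il6 was at 244 CPM in the members and 33.6 CPM in alveolar macrophages, and Il18 at 97.0 CPM and 777 CPM. Without the cells with Timd4, the log2 ratio over alveolar macrophages was -1.33 for Il6 (2.82 in all members), -1.30 for Prg4 (5.70 in all members), -2.66 for Saa3 (4.40 in all members) and -3.22 for Serpinb2 (5.27 in all members). In the remaining 77 members Prg4 and Saa3 were each read in 1 cell, Il6 in 3 cells and Serpinb2 in 0, so these levels lie near the limit of detection.

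Cytokine receptors were higher in 5 of 22 and lower in 3, with Csf1r at 985 CPM in the members and 114 CPM in alveolar macrophages. Fc receptors and adhesion genes were higher in 8 of 21 and lower in 5: the inhibitory Fc receptor gene Fcgr2b was at 444 CPM in the members and 45.0 CPM in alveolar macrophages, and the tetraspanin gene Cd9 at 180 CPM and 1362 CPM. Innate sensing genes were higher in 9 of 20 and lower in 3, with the endotoxin co-receptor gene Cd14 at 2218 CPM in the members and 476 CPM in alveolar macrophages. Interferon-stimulated genes were higher in 7 of 11 and lower in 0. Among genes for neural ligands and receptors 3 of 11 were higher and 2 lower. The semaphorin receptor gene Nrp1 was at 111 CPM in the members and 32.4 CPM in alveolar macrophages, and the neurotrophin sorting receptor gene Sort1 at 17.2 CPM and 215 CPM. A further 14 genes of that list in the table had too few values.

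Cell cycle genes of S and G2/M phase were lower in 12 of 20 and higher in 0, with a median of -1.09, and the median was -0.31 once cells with Mki67 or Top2a were left out of both populations. Genes raised by tissue dissociation were higher in 5 of 16 and lower in 1, with Socs3 at 241 CPM in the members and 13.4 CPM in alveolar macrophages and the early response gene Jun at 505 CPM and 163 CPM. Their part in the levels of Cxcl1, Il6 and the other inducible genes was not tested.

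The Lyve1-type list was higher in 11 of 12 and the MHC class II and Cx3cr1 list in 9 of 10, with medians of 5.36 and 3.52, and 8 of 10 microglia genes were higher with a median of 1.68. These lists hold genes that were known to lead in these cells and carry no independent weight. Over all genes with the fixed limits on level, the lowest ratios over alveolar macrophages included the secreted ribonuclease genes Ang2 (listed at 0 in the members, 243 CPM in alveolar macrophages), Ang5 (3.13 CPM and 316 CPM), Ang4 (4.69 CPM and 394 CPM) and Ear10 (10.9 CPM and 651 CPM), which belong to families of near-identical copies whose reads may be split. Phgdh, the first enzyme of serine synthesis, was at 3.13 CPM in the members and 283 CPM in alveolar macrophages.

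**Figure D4:**
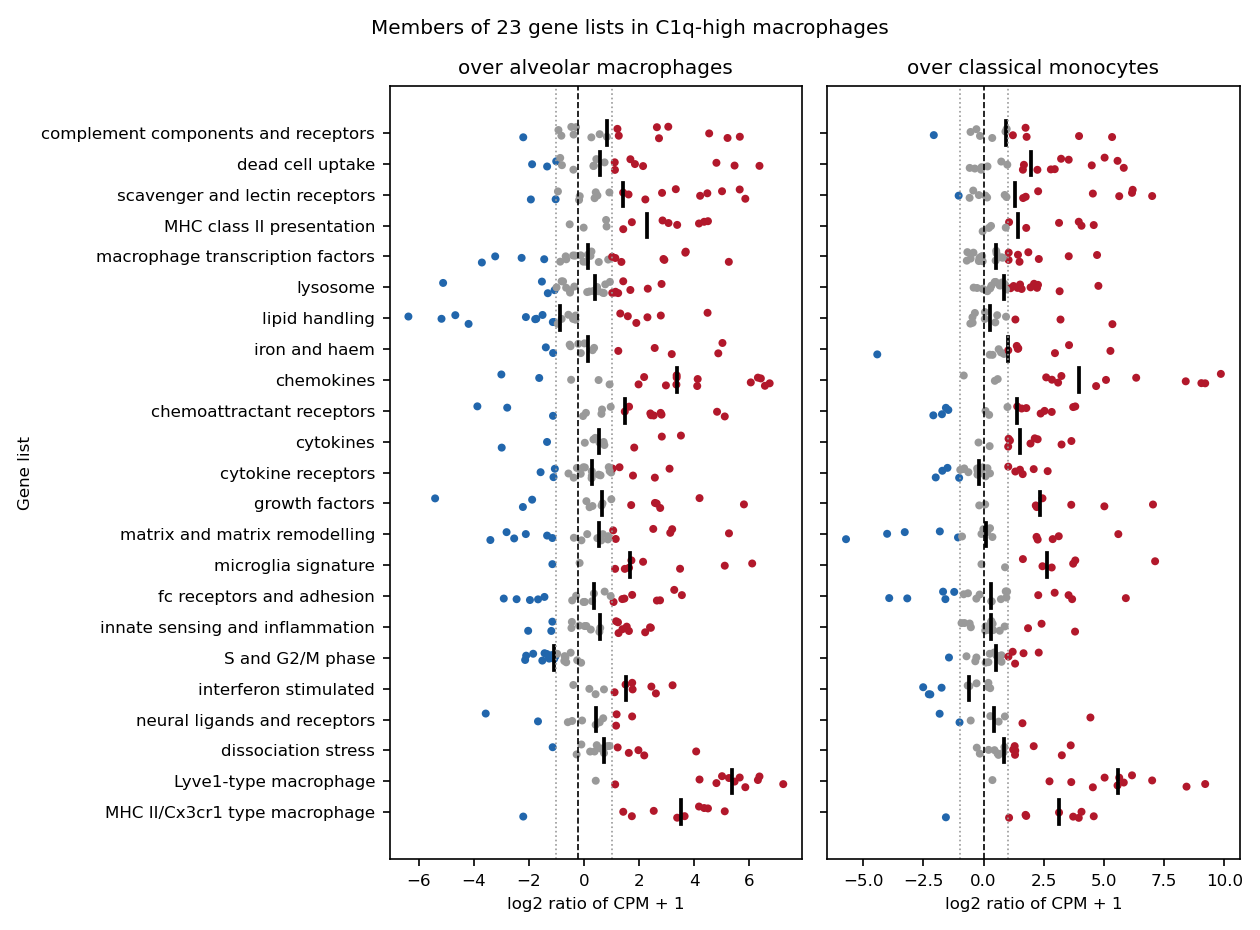
log2 ratios of CPM + 1 in C1q-high macrophages over alveolar macrophages (left) and over classical monocytes (right), 1 point for each member of 23 gene lists with at least 20 summed values; genes that chose the cells are left out. Black bars are list medians, the dashed line is the median of all genes (-0.23 and 0.01), and dotted lines mark a 2-fold difference. Chemokines had medians of 3.36 and 3.95, and S and G2/M genes medians of -1.09 and 0.53.

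Against classical monocytes, 933 of 6777 genes were 2-fold higher in the members, which is 13.8%, and 527 were 2-fold lower, which is 7.78%, with an all-gene median of 0.01. Against non-classical monocytes, 1406 of 8028 genes were higher, which is 17.5%, and 845 lower, which is 10.5%, with a median of 0.15. With at least 100 summed values required, 296 genes were higher and 516 lower than in non-classical monocytes, so the balance turned, and 196 were higher and 187 lower than in classical monocytes. The monocyte populations carried neutrophil granule transcripts: more than 2 values of Camp, Ngp, Ltf and Retnlg were present in 2 of 105 members, 21 of 108 classical monocytes and 81 of 305 non-classical monocytes. The list of 8 neutrophil markers summed to 1597 CPM in the members, 19686 CPM in classical monocytes and 34515 CPM in non-classical monocytes. Medians per cell were lower, at 197 CPM, 2683 CPM and 1576 CPM. Among the lowest ratios, Lcn2, Camp, Ltf, Ngp, Stfa2, Stfa3 and BC100530 are neutrophil genes, and with those monocytes left out the log2 ratio over classical monocytes was -1.02 for Camp (-6.74 with them) and 0.017 for BC100530 (-4.86 with them).

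Chemokines were again far above the background share over classical monocytes, with 11 of 14 higher, 0 lower and a median of 3.95. Pf4 was at 4228 CPM in the members and 6.2 CPM in classical monocytes, and Cxcl1 at 1705 CPM and 20.1 CPM, while Ccl7, Ccl12 and Ccl24 were listed at 0 in classical monocytes. Dead cell uptake genes were higher in 11 of 18 and lower in 0, with a median of 1.95. Mertk and Axl, which were lower than in alveolar macrophages, were higher than in classical monocytes, with Mertk at 54.7 CPM in the members and 6.2 CPM in classical monocytes and Axl at 196 CPM and 20.1 CPM. Mrc1 was at 957 CPM in the members and 12.4 CPM in classical monocytes, and Stab1 at 493 CPM and 7.75 CPM.

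Lysosomal genes were higher in 11 of 26 and lower in 0 over classical monocytes, with Lgmn at 1140.3 CPM in the members and 127 CPM in classical monocytes and Cd63 at 532 CPM and 18.6 CPM. Growth factors were higher in 6 of 8, cytokines in 8 of 10, MHC class II genes in 6 of 10, scavenger receptors in 8 of 16, transcription factors in 8 of 22, iron genes in 7 of 13 and microglia genes in 6 of 8. Maf was at 549 CPM in the members and 46.5 CPM in classical monocytes. Dab2, an endocytic adaptor, was at 838 CPM in the members and 13.9 CPM in classical monocytes, and Hpgds, a prostaglandin D2 synthase, at 155 CPM and 1.55 CPM. Tgfb1 was level in all 4 populations, at 399 CPM in the members, 376 CPM in alveolar macrophages, 381 CPM in classical monocytes and 430 CPM in non-classical monocytes.

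Genes other than the neutrophil genes were also lower than in classical monocytes. Plac8 was at 53.2 CPM in the members and 2337 CPM in classical monocytes, the matrix proteoglycan gene Vcan at 3.13 CPM and 215 CPM, and Thbs1, encoding thrombospondin 1, at 181 CPM and 1764 CPM. Ly6c2, at 17.2 CPM in the members and 1296 CPM in classical monocytes, helped to choose the monocytes. Interferon-stimulated genes were lower in 4 of 10 and higher in 0, with Ifitm3, which blocks virus entry, at 599 CPM in the members and 2780 CPM in classical monocytes. Over alveolar macrophages the same gene was higher, since those stood at 97.3 CPM. Most of the Ifitm3 level came from the members with Timd4, at 1838 CPM (25 of 28 cells). Members without Timd4 stood at 149 CPM (18 of 77 cells). Ccr2 was at 158 CPM in the members and 470 CPM in classical monocytes, a receptor that the monocyte rule required.

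Over non-classical monocytes S and G2/M genes were higher in 15 of 17 and lower in 0, with a median of 1.60, although with at least 100 summed values required the median of the genes left was -0.33. Lysosomal genes were higher in 13 of 26, MHC class II genes in 8 of 10 and chemokines in 12 of 14. Cx3cr1 itself, a gene that non-classical monocytes are known for, was at 685 CPM in the members and 169 CPM in non-classical monocytes. Cyfip2, a regulator of actin, was listed at 0 in all members and stood at 134 CPM in non-classical monocytes.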

How the data were processed

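Single cells were sequenced from 1 library with no replicate. The deposited table held 17758 genes in 11306 cells. Per the submitters' processing notes, the authors used Cell Ranger 5.0 and Seurat 3.2.2, with a genome build not given in the sources used here. The deposited values are treated as a score: they are whole numbers, but cell totals lie between 3859 and 6899, a span of 1.79-fold, as after correction for depth, so they are not raw counts as had been planned for. Depth per cell cannot be read from them, and count models were not used. The deposited bulk table of 1 library holds expected counts made by the authors with Trim Galore, HISAT2 and featureCounts on mm10, per the submitters' processing notes.

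Values were summed over each population and scaled to 1000000, 1 CPM was added, and genes with at least 20 summed values were compared by log2 ratio (Python 3.11.15, numpy 2.4.6, scipy 1.17.1, pandas 2.3.3). Differences of at least 2-fold were called by size alone. Members had mitochondrial values of at most 10%, which removed 646 cells, and no barcode occurred more than once. Doublets were predicted with Scrublet (scanpy 1.11.5, expected share 5%), which marked 4.32% of the cells kept, and were left out only in an alternative. The script was checked on simulated data. The members, the 23 gene lists and the markers were chosen with earlier results of these data known. Genes were named by a rule: the genes of the population rules, the subset genes, up to 4 and 3 genes per list with the largest ratios over alveolar macrophages and classical monocytes, the 15 highest and 10 lowest genes over each of these, the 10 highest and 5 lowest over non-classical monocytes and the 10 genes most like the C1q sum. Ratios needed at least 100 summed values and, for highest and lowest genes, 50 CPM. Genes named as members of a list, and those said to be chosen after their values were seen, stand outside it. Alternatives changed 1 choice at a time among the limits on cells, genes and values. A few genes of the lists are not reported here by name.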

Additional observations from a re-analysis of the deposited data

Results flagged for a closer look

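The bulk library of PDGFRα+ cells, which no comparison above used, held transcripts of the genes that mark C1q-high macrophages, above the limit that 3 reads set (0.0175 CPM). C1qa was at 3.81 CPM (exact Poisson 95% interval 3.52 to 4.11), C1qb at 3.76 CPM, C1qc at 2.77 CPM, Cx3cr1 at 2.44 CPM and Pf4 at 2.64 CPM. In the same library Pdgfra was at 184 CPM, and Ptprc, the marker of blood cells, at 5.08 CPM. Timd4 was read 6 times, at 0.0349 CPM. Fewer cells of a type and less RNA per cell cannot be told apart in a bulk sample.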

How the results depend on the processing

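No paired analysis was possible because there was 1 library and no replicate. Of the values recomputed under 16 alternatives, 4 of them added after the data were seen, 3361 of 3542 gene ratios, 943 of 989 list medians and 158 of 172 counts stayed within 1.5-fold of the reported value. The limits of at least 1 and at least 100 summed values only choose which genes are compared and cannot move a gene ratio. The 265 and 238 gene ratios unchanged under them were therefore fixed in advance and say nothing on stability. Leaving out predicted doublets removed none of the 105 members and none of the 108 classical monocytes. Gene ratios and list medians between these populations were thus fixed under that alternative too. With fewer than 2 alveolar macrophage genes allowed, the members were 0.797% of cells and Arg1 over alveolar macrophages was -0.39. With 5 CPM added, 1177 genes were lower than in alveolar macrophages. With at least 100 summed values, 459 genes were higher than in alveolar macrophages, 196 higher and 187 lower than in classical monocytes (74 and 16 in the lists), and 296 higher and 516 lower than in non-classical monocytes (83 higher in the lists). Fewer genes were then compared, and the counts in the lists are given without a share. Of called genes 51.2% and 36.5% were higher over the 2 monocyte types. The medians over non-classical monocytes were -0.11 for growth factors and -0.33 for S and G2/M genes. With at least 1 summed value, 1809 genes were higher than in alveolar macrophages, 3588 higher and 1750 lower than in classical monocytes, and 3472 higher and 1757 lower than in non-classical monocytes. With monocytes of at most 2 granule values (added), BC100530 over classical monocytes was 0.017. Without the members with Timd4 (added), ratios over alveolar macrophages were -0.26 for Arg1, -1.33 for Il6, -1.30 for Prg4, -2.66 for Saa3 and -3.22 for Serpinb2, and Serpinb2 over classical monocytes was -5.31. The cause of the change of Arg1 was not tested. With 105 members, a gene at 0 allows a share of up to 2.86% of cells with a value, a limit on detection only, and the spread between animals is not known.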
